A study of Drosophila melanogaster with 2 samples.

Results

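The respiratory chain and ATP synthase genes described here are the protein-coding genes of the Drosophila melanogaster nuclear genome whose annotated symbol starts with ND-, COX, UQCR or ATPsyn. This rule found 80 genes among 13945 protein-coding genes of the main chromosome arms: 40 of complex I, 9 of complex III, 16 of complex IV and 15 of the ATP synthase. The complex of each gene was taken from the prefix of its symbol alone. The symbols of 21 members end in L, or in L and a digit, which marks a second, like copy of another subunit gene (for example ND-51L1 and ATPsynbetaL), and the other 59 carry no such ending. The chromatin came from ovaries of adult females, of unknown age, of a transgenic line that stably carries CG17801, a zinc finger protein, with GFP fused to its C-terminus. ChIP-seq was done with an anti-GFP antibody on 2 biological replicates of 1 group, numbered 1 and 3 and drawn from the same line. The promoter that drives the fusion protein is not given in the labels, the ovary holds germline and somatic cells together, and control chromatin was not analysed here, so signal that another GFP fusion would give at these promoters is not separated from that of CG17801. With 1 group there is no contrast to test, and counts are set beside the same counts over all genes as descriptions.

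Complexes I, III and IV pass electrons from NADH and ubiquinol to oxygen and pump protons across the inner mitochondrial membrane, and the ATP synthase uses the proton gradient to make ATP. A few subunits are encoded by the mitochondrial genome and the rest by nuclear genes, which are used in nearly all cells. Many of the fly's duplicated copies are known for expression in the testis, and during oogenesis the ovary builds up the mitochondria that the egg passes on.

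The summits of 5 bound genes are shown first, as the 101 bases centred on each summit, because they show the DNA that CG17801-GFP occupied at respiratory promoters. These windows hold no annotated exon base. They were read from the RefSeq genome of Release 6 (dm6), each 5′ to 3′ on the strand of its gene, and capitals mark an 8-base element, the nuclear respiratory gene element (TTACATAA in ND-MNLL and TTATATAA in ND-SGDH). The window of ND-ASHI is chrX:6679309-6679409 on the minus strand, that of COX7B is chr3L:17425310-17425410 on the plus strand, and that of ND-51 is chr2L:6062820-6062920 on the minus strand. The window of ND-MNLL is chrX:7893819-7893919 on the minus strand, and that of ND-SGDH is chr3L:12138617-12138717 on the minus strand. The 5 were not chosen by peak strength alone: ND-23, ND-42 and ATPsynCF6 had stronger peaks than ND-SGDH and are not shown. The element lay within 100 bp of the summit at 7 of 36 bound members, so its share among these windows is not typical.
ND-ASHI: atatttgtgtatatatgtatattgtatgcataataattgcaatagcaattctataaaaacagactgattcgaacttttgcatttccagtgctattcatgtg
COX7B: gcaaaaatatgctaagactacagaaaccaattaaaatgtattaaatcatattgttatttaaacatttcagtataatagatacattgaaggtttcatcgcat
ND-51: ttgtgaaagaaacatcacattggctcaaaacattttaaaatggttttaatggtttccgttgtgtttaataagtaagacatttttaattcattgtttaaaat
ND-MNLL: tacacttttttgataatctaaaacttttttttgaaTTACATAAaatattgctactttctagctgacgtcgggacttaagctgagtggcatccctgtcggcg
ND-SGDH: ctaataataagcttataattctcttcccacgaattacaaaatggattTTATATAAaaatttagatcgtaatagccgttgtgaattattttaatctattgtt

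The deposited data are peak lists. Every replicate list held 30000 peaks, as did the list the authors made from the replicates combined (the pooled list), and the list kept after the irreproducible discovery rate procedure (the IDR list) held 6723, which were the 6723 strongest of the pooled list. A gene counts as bound where the IDR list has a summit no further than 250 bp from any of its annotated transcription start sites (TSSs). Signal is the value the authors gave to each peak, on a scale that the sources do not state, and rank 1 is the strongest peak of a list. Peak lists carry no read totals, so depth is unknown and no counting error can be given.

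CG17801-GFP occupied the promoters of 36 of the 80 members in the IDR list, or 45%, against 30.4% of all genes. The 36 were all among the 59 members without the L ending, of which 61.0% were bound, and 0 of the 21 L paralogs were bound. Each replicate was then read on its own, through its 6723 strongest peaks. Replicate 1 placed a summit at 34 of the 80 promoters, against 29.4% of all genes, and replicate 3 also at 34, against 29.8% of all genes. The split by symbol was the same in each replicate, with 34 of the 59 and 0 of the 21 L paralogs.

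Below the IDR list, peaks extended to the rest of the subunit genes, though these weaker peaks were not kept by the IDR procedure. In the pooled list 59 of the 59 members without the L ending had a promoter summit, against 55.4% of all genes, while 1 of the 21 L paralogs had one. The whole replicate 1 list held a promoter summit for 57 of the 59, against 54.0% of all genes, and lacked one for COX8 and ND-AGGG. The whole replicate 3 list held one for 59 of the 59, against 54.4% of all genes. Genes with more start sites have more chances to count, so genes with 1 annotated TSS were also read alone. Among them, 24.8% of all genes were bound and 48.0% had a pooled promoter summit, and of the 27 members of that kind without the L ending 14 were bound and 27 had a pooled summit. Of the 19 L paralogs with 1 TSS, 0 were bound and 1 had a pooled summit.

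**Figure D1:**
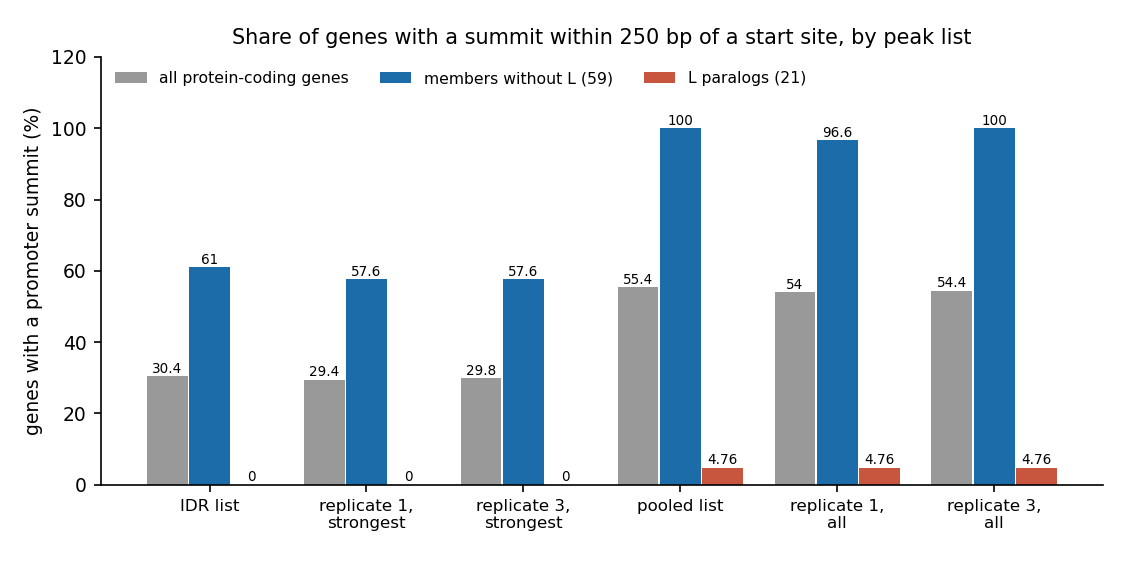
Share of genes (%) with a summit within 250 bp of a TSS in each of 6 peak lists, for all 13945 protein-coding genes (grey), the 59 members without the L ending (blue) and the 21 L paralogs (red). Blue bars stand at 57.6% or more in every list and at 100% in the pooled and whole replicate 3 lists, and red bars at 0% in the IDR list and the strongest peaks of each replicate and at 4.76% in the other lists.

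The signal at the bound members was of middle height. Its median was 183, with a range of 117 to 405, and the median over all 4245 bound genes was 191. The bound members fell at a median percentile of 45.8 among all bound genes, with 8 of 36 above the upper quartile of all bound genes (278) and 11 below the lower quartile (149). Their highest signal of 405 compares with 3677 for the highest of all bound genes, so the promoter peaks of the members were never among the tallest. Among genes with a pooled promoter summit, 36 of 60 members were in the IDR list, or 60%, against 55.0% of all such genes.

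Complex I, the NADH dehydrogenase, had 16 of its 34 genes without the L ending bound, against 30.4% of all genes. The 34 include ND-MLRQ (human NDUFA4), which was not bound and is counted here only by its prefix. The core subunits, which carry the redox groups and have bacterial counterparts, were bound at 3 of 7 genes, and the accessory subunits, which surround the core, at 13 of 27. The order of these shares depended on the list: the strongest peaks of replicate 1 alone counted 5 of 7 core genes, ND-20 and ND-30 in addition, and 13 of 27 accessory genes, and those of replicate 3 counted 3 of 7 and 15 of 27. The bound core genes were ND-51, whose human counterpart NDUFV1 binds NADH and the flavin, and the iron-sulfur subunit genes ND-24 (NDUFV2 in human) and ND-23 (NDUFS8).

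ND-24 (X, 17632089 to 17633509, plus strand) had the highest signal of the core genes, 388, at a summit at position 17632198, 109 bp downstream of the TSS. The peak ranked 979 in replicate 1 and 777 in replicate 3. ND-51 (2L, 6060842 to 6062757, minus strand) had a signal of 337 at 6062870, 113 bp upstream, with ranks of 931 and 1382. Both replicates thus placed these peaks among their strongest. ND-23 (3R, 15836048 to 15837117, minus strand) had a signal of 278 at 15837264, 147 bp upstream. There the replicates differed: the summit within 100 bp of the IDR summit ranked 5050 in replicate 1 and 1641 in replicate 3, and replicate 1 held a stronger promoter summit of ND-23 at rank 1740. The core genes ND-75, ND-49, ND-30 and ND-20 had pooled promoter summits at ranks 13106, 9551, 10323 and 6962, all under the IDR list.

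Among accessory genes, ND-ASHI (X, 6677262 to 6679118, minus strand), which corresponds to human NDUFB8 of the membrane arm, had the highest signal of any member. Its summit at 6679359 had a signal of 405 and lay 241 bp upstream of the nearest TSS, close to the edge of the 250 bp window. The peak ranked 489 in replicate 1 and 1231 in replicate 3. ND-ASHI was the single bound member with more than 1 IDR promoter summit, the other one lying 4 bp inside the start of a shorter transcript, at position 6678256, with a signal of 197. ND-MWFE (2R, 13158666 to 13160190, plus strand), the counterpart of human NDUFA1, had a signal of 368 at 13158500, 166 bp upstream, and ranks of 1353 and 873.

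The next accessory genes had lower signals. ND-MNLL (X, 7893053 to 7893798, minus strand; human NDUFB1) had a signal of 256 at 7893869, 71 bp upstream, ranked 2106 and 1816 in replicates 1 and 3. ND-42 (3R, 22027709 to 22029393, plus strand; human NDUFA10) had 253 at 22027598, 111 bp upstream, ranked 3206 and 1389. ND-B22 (2L, 13370103 to 13371110, minus strand; human NDUFB9) had 224 at 13371015, 11 bp downstream, ranked 4304 and 1678. All 3 ranked higher in replicate 3 than in replicate 1. The other bound accessory genes were ND-SGDH (signal 210), ND-B18 (209), ND-B14.5A (178), ND-13B (163), ND-B17.2 (153), ND-B12 (141), ND-B15 (137) and ND-18 (117).

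The edge of the IDR list ran through complex I. ND-18, whose human counterpart is NDUFS4, held the last place inside it among the members, at pooled rank 6709 of the 6723. Just below it came ND-15 at rank 6824 with a signal of 116, ND-B16.6 at 6904, ND-20 at 6962 and ND-13A at 7124. These genes differ from ND-18 by little in signal, so the count of 16 bound genes depends on where the list ends.

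Complex III, which passes electrons from ubiquinol to cytochrome c, had 4 of 6 genes without the L ending bound, against 30.4% of all genes. UQCR-14 (X, 16286288 to 16286988, plus strand), the counterpart of the ubiquinone-binding subunit gene UQCRB in human, led with a signal of 289 at 16286329, 41 bp downstream of the TSS. Its peak ranked 1204 in replicate 1 and 1723 in replicate 3. UQCR-6.4 (signal 149), UQCR-C2 (143), a core protein gene, and UQCR-Q (119) followed at lower signals. At UQCR-C2 the match between replicates was poor: replicate 1 had no summit within 100 bp of the IDR summit, though it held another promoter summit at rank 3278, and the match in replicate 3 ranked 25723. UQCR-C1, the other core protein gene, and UQCR-11 had pooled summits at ranks 10061 and 12964.

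Complex IV, cytochrome c oxidase, was the complex in which every gene with the COX prefix and without the L ending was bound, 8 of 8. The share of all genes was 30.4%, and COX5A, at pooled rank 6538, lay near the end of the 6723 peaks of the IDR list. COX7B (3L, 17425477 to 17426282, plus strand) had a signal of 354 at 17425360, 117 bp upstream, and ranked 1938 in replicate 1 and 849 in replicate 3. The small subunit genes COX7C (219), COX6B (195), COX7A (155), COX8 (153), COX5B (147), COX4 (138) and COX5A (119) had lower signals. Their products surround the catalytic subunits that the mitochondrial genome encodes. COX8 ranked 2066 in replicate 3 and had no promoter summit anywhere in the replicate 1 list, so its place rests on replicate 3. COX5B had no summit within 100 bp of its IDR summit in replicate 1 and one of rank 14420 in replicate 3, yet each replicate held another promoter summit of it, at ranks 4867 and 3408. In the strongest peaks of each replicate alone, the complex counted 7 genes in replicate 1 and 6 in replicate 3.

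The ATP synthase had 8 of 11 genes without the L ending bound, against 30.4% of all genes. ATPsynbeta (4, 1031484 to 1034917, plus strand), the catalytic subunit gene of the F1 head, had a signal of 290 at 1031943, 79 bp downstream, and close ranks of 1490 and 1467 in replicates 1 and 3. ATPsynCF6 (3R, 23355220 to 23356064, minus strand), which encodes coupling factor 6 of the peripheral stalk, had a signal of 234 at 23356200, 136 bp upstream, and ranks of 3713 and 2033. Also bound were the stalk genes ATPsynD (191) and ATPsynO (189), ATPsynC of the proton-carrying ring (173), ATPsynF (144), ATPsynE (134) and ATPsyngamma of the rotor (121). The genes ATPsynB, ATPsyndelta and ATPsynG had pooled promoter summits at ranks 8588, 10818 and 15290.

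**Figure D2:**
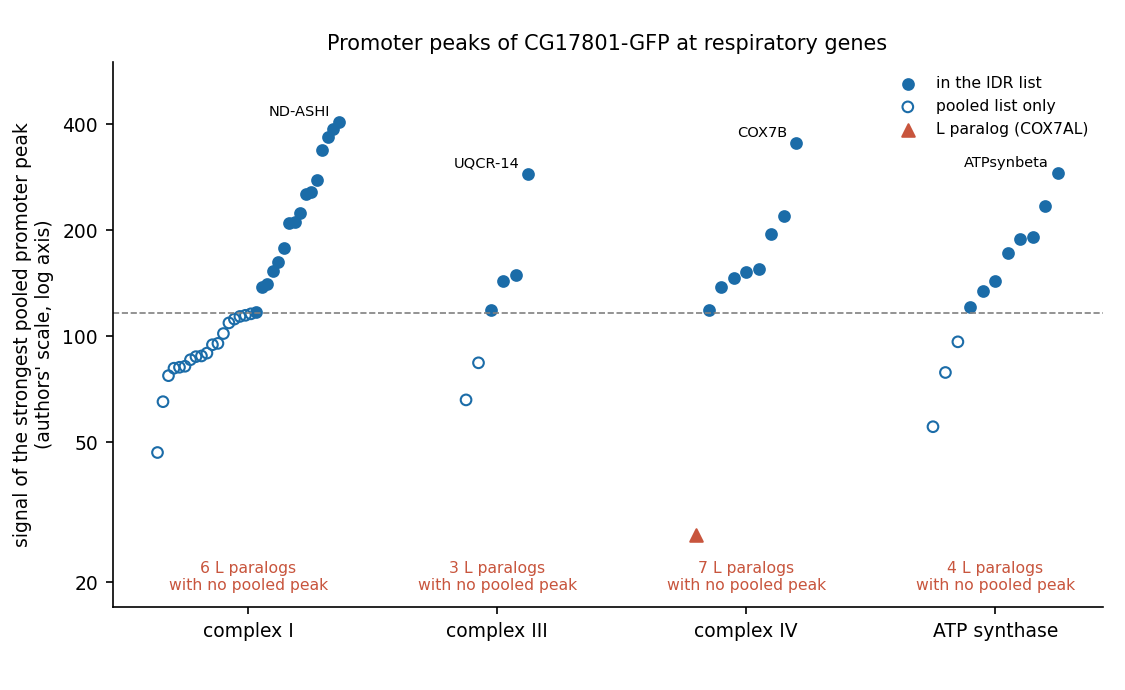
Signal of the strongest pooled promoter peak (authors' scale, log axis) of each member, by complex. Filled points are in the IDR list and open points only in the pooled list, the dashed line marks the lowest signal of the IDR list, 117, and the single triangle is the L paralog COX7AL at 27.3, with the number of L paralogs that have no pooled peak written under each complex.

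The 23 members without the L ending that fell below the IDR list were not without signal. Their pooled ranks ran from 6824 to 17872, with 13 under rank 10000, and their signals from 115.7 down to 46.7. Of the 23, 21 had the pooled summit within 100 bp of a TSS, at a median of 27 bp downstream, and 22 had a promoter summit in both replicate lists. The exception was ND-AGGG, the lowest of all, which had none in replicate 1 and rank 14955 in replicate 3. ND-AGGG, UQCR-11 and ND-MLRQ lay far from any IDR summit, at 438762, 583217 and 243896 bp, so the pooled peaks at these 3 genes stood alone in wide regions with no IDR peak.

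The rank of a member peak was less alike between the replicates than that of bound genes in general. A replicate summit within 100 bp of the IDR summit was found for 33 of the 36 in replicate 1, for 35 in replicate 3 and for 32 in both. Over these 32 members Spearman's rho between the ranks was 0.452, and over 3978 matched bound genes it was 0.661. Both values describe peaks of the same pair of libraries, and the members span a narrow, middle range of ranks. The median rank of the 32 was 3635 in replicate 1 and 3084.5 in replicate 3, and 19 ranked higher in replicate 3. The widest difference in favour of replicate 1 was at ND-B15, ranked 2521 and 12550 in replicates 1 and 3, and the widest in favour of replicate 3 at ATPsynF, ranked 10356 and 2765.

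**Figure D3:**
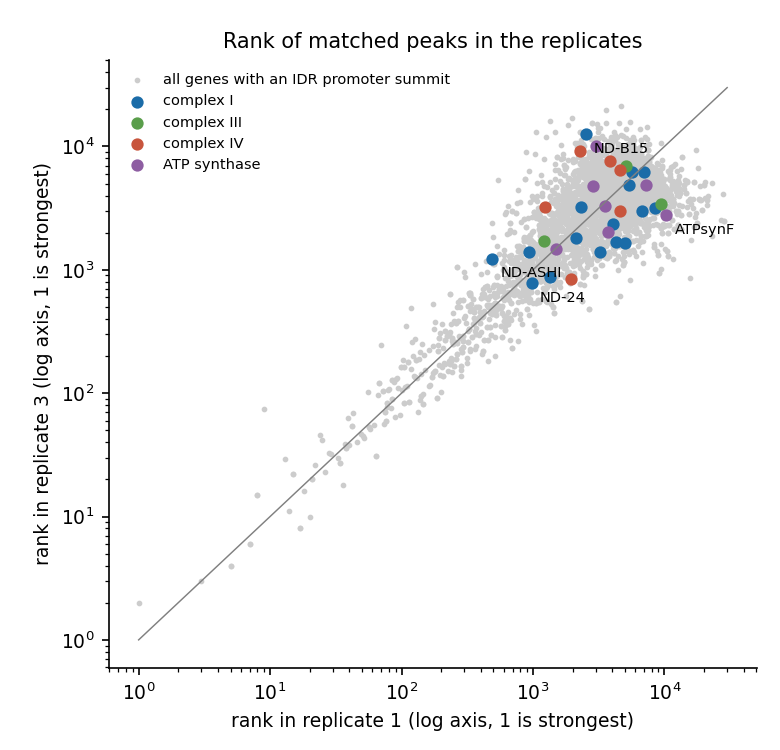
Rank of the matched summit in replicate 1 (x axis) and replicate 3 (y axis), both on log axes with 1 the strongest, for the 32 members matched in both (coloured by complex) and all matched bound genes (grey). The members lie between ranks 489 and 12550, and the line marks equal rank.

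Of the 80 promoters, 23 were among the strongest 6723 peaks of both replicates and 35 of neither. Another 11 were found in replicate 1 alone: ND-15, ND-20, ND-30, ND-B14, ND-B16.6, ND-B15, UQCR-C2, UQCR-Q, COX7A, COX5A and ATPsyndelta. A further 11 were found in replicate 3 alone: ND-B14.5A, ND-13B, ND-18, ND-ACP, ND-B14.5B, ND-B8, UQCR-6.4, COX8, ATPsynF, ATPsynE and ATPsyngamma. Over all genes 23.7% were in both and 11.8% in exactly 1.

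The summits lay further downstream relative to the TSS than at bound genes in general. The median position was 0 bp, with quartiles of -95 and 44 bp, and over all bound genes it was -60 bp, with quartiles of -128 and 12 bp. Regardless of side, the median distance was 72 bp at the members and 83 bp at all bound genes. Upstream summits made up 17 of 36 members, or 47.2%, against 69.5% of bound genes. The 3 members nearest to the edge inside the window were ND-ASHI at 241 bp, COX7C at 185 bp and ND-MWFE at 166 bp. Among the members that were not bound, the nearest IDR summits lay 524 bp from ATPsynG, 583 bp from COX7AL2 and 759 bp from ND-15. Of the bound members, COX8 and ATPsynC had a further IDR summit nearer than these, at 357 and 520 bp.

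Many of these summits were shared with a neighbouring gene. At 21 of the 36 bound members, or 58.3%, the summit also lay within 250 bp of the TSS of a gene on the opposite strand, against 39.9% of all bound genes. The partners include spn-E, a piRNA pathway helicase gene, at ND-23, and corolla, a gene of the meiotic synaptonemal complex, at ND-24. Others were Cchl, the cytochrome c heme lyase gene, at ND-42, TppII at ND-MWFE, Sec3 at COX7B, Sec13 at ATPsynCF6, Arl2 at COX7A and the mitochondrial ribosomal gene mRpL55 at ATPsynD. A peak between a member and its partner cannot be given to either gene from these lists. When each summit counted for its nearest TSS alone, 31 members stayed bound, against 24.6% of all genes.

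Members with a partner had a median summit position of -61 bp and a median signal of 210, and the 15 without one had 12 bp and 163. Over all bound genes the medians were -105 bp and 211 with a partner, and -21 bp and 181 without. Within each class the median of the members was further downstream than that of all bound genes.

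**Figure D4:**
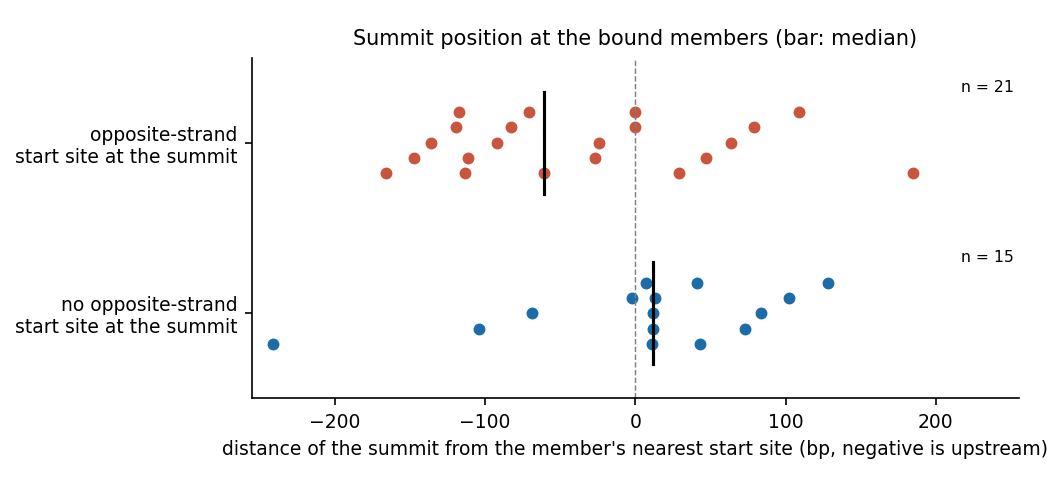
Distance of the IDR summit from the nearest TSS of each of the 36 bound members (bp, negative is upstream), for the 21 whose summit also lies at a TSS on the opposite strand and the 15 without one. The bars mark medians of -61 and 12 bp.

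Of the 80 genes, 6 (7.5%) held IDR summits in the gene beyond the 250 bp window, against 10.1% of all genes. Longer genes have more room for such summits: among genes up to the median length of 2166 bp, 2 of 67 members and 1.03% of all genes held one. The strongest was in ND-39, human NDUFA9, with a signal of 611 at rank 348, 1513 bp downstream of its nearest TSS, while its promoter peak stayed at pooled rank 11048. ND-15, a gene that spans 41305 bp, held 3 such summits with signals up to 493. ND-B17, UQCR-Q, ATPsynC and the L paralog COX7AL2 held 1 each, at signals of 179, 192, 127 and 344. At ATPsynC the promoter summit was the stronger, with a signal of 173. At the other genes the strongest summit within the gene was higher than any pooled promoter summit, for example 493 against 115.7 in ND-15. COX7AL2 had no pooled promoter summit. Other genes may overlap these positions.

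The L paralogs stood apart from the genes they resemble. Of the 21, 19 had no promoter summit in any list: ND-20L, ND-24L, ND-49L, ND-51L1, ND-51L2, ND-B14.5AL, UQCR-11L, UQCR-14L, UQCR-6.4L, COX4L, COX5BL, COX6AL, COX6AL2, COX6CL, COX7CL, ATPsynCF6L, ATPsynGL, ATPsynbetaL and ATPsynepsilonL. COX7AL had a weak pooled summit, at rank 29145, and one in replicate 3 at rank 27418. COX7AL2 had one in replicate 1 alone, at rank 27004. The genes they resemble number 18, of which 14 were bound and 18 had a pooled promoter summit. Of these, 3 carry symbols outside the rule: levy (a COX6A gene), cype (COX6C) and sun (the epsilon subunit of the ATP synthase).

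In 3 cases the L paralog lies beside its counterpart. COX5BL lies 122 bp from COX5B, COX7CL 281 bp from COX7C, and COX7AL 2625 bp from COX7A. COX5B, COX7C and COX7A were bound with signals of 147, 219 and 155, and the nearest IDR summit lay 1723, 1810 and 2673 bp from the TSS of COX5BL, COX7CL and COX7AL. The peaks were thus placed at 1 gene of each neighbouring pair. Across the 21 L paralogs the nearest IDR summit lay 583 to 111057 bp away, with a median of 13486 bp. Whether these copies are expressed in the ovary was not measured here.

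Genes whose symbols fall outside the rule were listed separately, and 36 of the 37 names matched the annotation. The list mixes respiratory subunit and cytochrome c genes with assembly factors, carriers, genes for the mitochondrial genome and regulators. Of the 36, 17 were bound, against 30.4% of all genes, and 31 had a pooled promoter summit, against 55.4% of all genes. CIA30, which encodes an assembly factor of complex I, had a signal of 873 at rank 164, above that of any member, with ranks of 205 and 137 in replicates 1 and 3. The ATP synthase genes blw (alpha subunit, 350) and sun (135), the complex IV genes levy (295) and cype (121), and the complex III genes ox (263) and Cyt-c1 (120) were bound as well. Complex II, which passes electrons from succinate and is built from nuclear subunits alone, had 1 of 6 genes bound, SdhD (173), and 3 of 6 with a pooled summit. Unlike the counts given for the other complexes, these 6 include L paralogs, SdhAL and SdhBL, neither with a pooled summit.

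The other classes of the list held few genes each, so their counts say little beside the shares of all genes. Those shares were 30.4% bound and 55.4% with a pooled summit. Of 8 genes for the upkeep and transcription of the mitochondrial genome 2 were bound, mtTFB2 (163) and mtSSB (146), while TFAM, mtTFB1, PolrMT, PolG1, PolG2 and mtDNA-helicase had pooled summits only. For mtSSB the replicate 1 list held no promoter summit, and replicate 3 held one at rank 3489. Of 4 carrier genes 1 was bound, the phosphate carrier gene Mpcp2 (223), and Mpcp1 and the adenine nucleotide carrier genes sesB and Ant2 had pooled summits only. Of 4 assembly genes 2 were bound, CIA30 and sicily (166), and Scox and Surf1 had pooled summits only. The somatic cytochrome c gene Cyt-c-p was bound (134). Cyt-c-d, the cytochrome c gene known for its role in the male germline, had no pooled promoter summit, and neither did Cyt-c1L, SdhAL, SdhBL and SdhC. All 4 listed regulators were bound: Dref (534), Myc (177), srl (144), the fly counterpart of PGC-1, and ewg (125), the counterpart of NRF-1.

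The reference around these start sites was searched for 9 sequence motifs, of which 4 are described, on both strands, with the TSS of the longest transcript as the anchor. They were the nuclear respiratory gene element (NRG element), described earlier in Drosophila genes of mitochondrial function and searched as TTACGTAA, TTATGTAA, TTACATAA or TTATATAA, the DRE TATCGATA, the E-box CAGCTG and the core GGTCACACT of the M1BP motif. No motif here is contained in another; TTACGTAA, TTATATAA, TATCGATA and CAGCTG read the same on both strands, and TTATGTAA is TTACATAA read on the other strand. From 250 bases before to 50 after the TSS, the M1BP core was held by 15 of the 59 members without the L ending, or 25.4%, against 6.06% of all genes and 11.3% of bound genes. CAGCTG was held by 21 of the 59, or 35.6%, against 17.8% of all genes and 24.3% of bound genes. The DRE was held by 9 of the 59, or 15.3%, against 9.32% of all genes and 17.8% of bound genes. Of the 36 bound members alone, 10 held the M1BP core (27.8%), 13 held CAGCTG (36.1%) and 7 held the DRE (19.4%). The DRE share of the bound members was close to that of all bound genes. Of the 21 L paralogs, 1 held the M1BP core, 1 held CAGCTG and 0 held the DRE.

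The NRG element was rare in that window, at 5 of the 59, or 8.47%, against 5.15% of all genes. It was common downstream. From 50 bases before to 250 after the TSS, 29 of the 59 held it, or 49.2%, against 3.29% of all genes, and up to 500 after the TSS 42 did, or 71.2%, against 6.09%. In both windows 0 of the 21 L paralogs held it. In the 50 bp bin that starts 200 bp downstream of the TSS, 20 of the 59 held the element, or 33.9%, against 0.832% of all genes.

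The element was held both by bound members and by the others. In the window to 250 bp it was found in 18 of the 36 bound members and in 11 of the 23 below the IDR list, and in the window to 500 bp in 28 (77.8%) and 14 (60.9%). At bound members the element in the window to 250 bp lay at a median of 209 bp from the summit. All 19 of 19 occurrences there were downstream of the summit. The window itself lies mostly downstream of the TSS, so it largely fixes both values. They therefore cannot show on which side of the summit the element tends to lie. Outside the window, ND-42 and ND-MNLL held an element upstream of the summit, at -30 and -11 bp, and ND-SGDH held one at 1 bp. Of the 30 occurrences in that window, 17 were in introns, 8 in exons and 5 across an exon edge. Of the 18 bound members with the element in that window, 4 held it within 100 bp of the summit.

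A smaller number of summits did lie near the element. Within 100 bp of the IDR summit, 7 of 36 bound members held it, or 19.4%, against 3.65% of 3341 summits at bound genes. These were ND-18, ND-42, ND-B12, ND-MNLL, ND-SGDH, UQCR-14 and ATPsyngamma. In ND-SGDH the middle of the element lay 1 bp from the summit, and in ND-MNLL 11 bp from it, in the windows printed for both genes. The element in ND-SGDH is followed by further A bases, so that these letters also hold the TATA box TATAAAA.

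**Figure D5:**
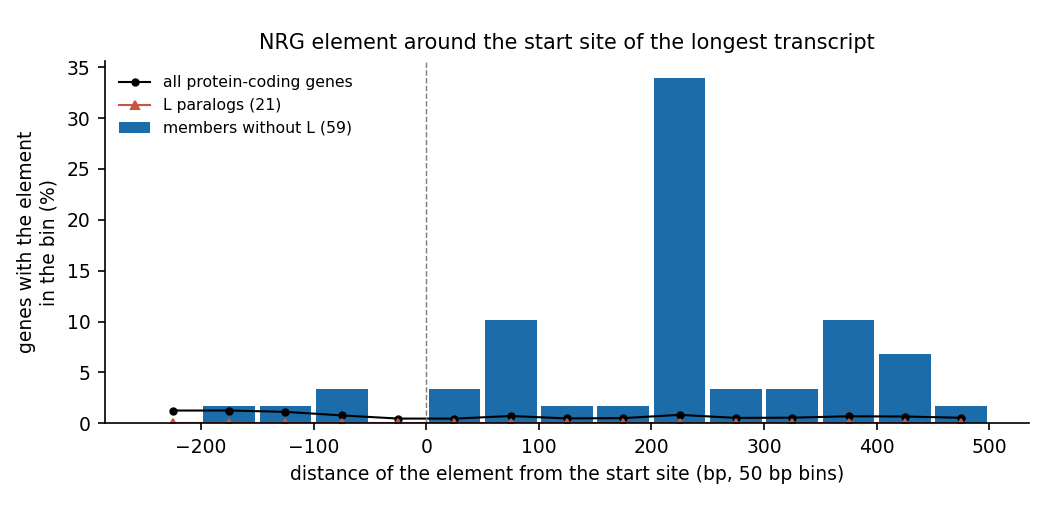
Share of genes (%) with an NRG element in each 50 bp bin around the TSS of the longest transcript, for the 59 members without the L ending (bars), all 13945 protein-coding genes (black line) and the 21 L paralogs (red). The bars reach 33.9% in the bin from 200 to 249 bp downstream, where all genes stand at 0.832%, and the L paralogs stay at 0 in every bin.

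From the downstream elements, 8 are printed to show the letters in genes of all 4 complexes. They were chosen among the 20 of the 30 occurrences that lay 205 to 242 bp from the TSS, and the other 10 lay at 16 to 194 bp, for example at 16 bp in ND-49 and 90 bp in ATPsyngamma. By complex, the element was in 16 of 34 genes of complex I, 3 of 6 of complex III, 2 of 8 of complex IV and 8 of 11 of the ATP synthase in the window to 250 bp. Each run has 30 bases of Release 6 (dm6) from RefSeq, 5′ to 3′ on the strand of the gene, with the element in capitals. The first base of the element lay 206 bp from the TSS in ND-23 (chr3R:15836893-15836922, minus strand), 242 bp in UQCR-14 (chrX:16286519-16286548, plus strand), 242 bp in UQCR-C1 (chr3R:14890462-14890491, plus strand) and 217 bp in COX7B (chr3L:17425683-17425712, plus strand). It lay at 205 bp in ATPsynCF6 (chr3R:23355841-23355870, minus strand), at 212 bp in ATPsynD (chr3R:19095201-19095230, plus strand), at 238 bp in ATPsynO (chr3R:15265818-15265847, plus strand) and at 227 bp in ATPsyndelta (chrX:10213186-10213215, plus strand). All 8 lie in introns.
ND-23: ggcgagtgaggTTATGTAAgcttatgtcat
UQCR-14: gaatattatgaTTACGTAAatatgtaatgc
UQCR-C1: gaggatttaaaTTACGTAAttgtaaatgat
COX7B: aaccttaaaaaTTACATAAtgtggataagc
ATPsynCF6: aaacaattgtaTTACATAAcctttttaagg
ATPsynD: attgaaaaaaaTTACATAAtttttgcgagc
ATPsynO: gcgtttcttggTTATGTAAtttttgcccat
ATPsyndelta: aacctacaaagTTACATAAtttggttattt
The flanks differ from gene to gene while the 8 bases in capitals follow a common pattern, which the choice of letters searched fixes. A match is a description of the letters and not of a binding site.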

How the data were processed

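The deposited files are narrowPeak lists on dm6 from 2 ovary samples of 1 group. Per the file headers, which are text descriptions beside the lists, a replicate list was made from 1 alignment with a control, the pooled list from 2 alignments, also with a control, while the IDR list rests on the 3 others. The labels give fragments of 200 to 800 bp. The aligner was not given in the sources used here, nor was the peak caller. The signal value of a peak, as deposited by the authors, was used within a list only. The deposited −log10 q-value was not used. The summit was the peak start plus the deposited offset. Read depth per sample is unknown, so no precision from counting can be stated. Nothing links the replicates to separate cultures or animals beyond the label.

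Genes and TSSs (19607) came from Ensembl release 115, with positions checked against the Release 6 arms. Summits within 250 bp of a TSS were promoter summits, and summits within 100 bp matched between lists. Tables were made with pandas 2.3.3 and numpy 2.4.6 under Python 3.11.15, rank correlations with scipy 1.17.1 and plots with matplotlib 3.10.9. The counting was checked on simulated data. No test was run. The members and lists were chosen with earlier results of these data known. Full values were given for the 12 members of highest signal, and briefer ones for other bound members, L paralogs, members strong in 1 replicate and the summits nearest to the window edge. The wider class of L paralogs, the downstream motif windows, and the choice of sequences, partner genes and widest rank gaps named were set after their values were seen.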

Additional observations from a re-analysis of the deposited data

How the results depend on the processing

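Of the 80 members, 18 were bound in the stronger 3361 peaks of the IDR list and 60 in the pooled list, and 34 to 34 with 1 replicate alone. For complex I the count of 16 became 10 in a 100 bp window, 10 in the stronger peaks and 34 in the pooled list, and 18 to 18 with 1 replicate alone. Complex III fell from 4 to 1 in the stronger peaks and to 2 to 3 with 1 replicate. Complex IV fell from 8 to 5 in a 100 bp window, to 3 in the stronger peaks, to 5 where the peak interval had to cover a TSS, and to 6 to 7 with 1 replicate. The ATP synthase fell from 8 to 4 in the stronger peaks and counted 6 to 8 with 1 replicate. L paralogs stayed at 0 in the other settings, 0 to 0 with 1 replicate alone, and at 1 in the pooled list. Members matched in both replicates were 19 within 50 bp. The median position became 3.5 bp from the TSS of the longest transcript. The background became 32.7% for genes with the same number of TSSs. The NRG element was in 5 members in the promoter window and, in windows chosen after seeing the data, in 29 (to 250 bp) and 42 (to 500 bp). Shorter windows and lists hold fewer peaks by construction, and no other cause was tested. In the stronger peaks 17.1% of all genes were bound against 22.5% of the members. Of all genes, 18.7% were bound in the 100 bp window and 24.9% where the peak interval had to cover a TSS. The pooled list held 55.4% of all genes, and the strongest peaks of replicates 1 and 3 alone held 29.4% and 29.8%. The alternative without assembly factors was not run, since no member is one by symbol. No paired analysis was possible because the study has 1 group.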

Other observations

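The bound members were spread over the arms. Of the members without the L ending, 8 of 12 on X, 5 of 12 on 2L, 6 of 9 on 2R, 6 of 13 on 3L, 10 of 11 on 3R and 1 of 2 on chromosome 4 were bound, while the share of all genes bound ran from 27.6% on 2L to 32.5% on chromosome 4. The member genes were short, with a median length of 1094.5 bp for the bound, 1336 bp for those below the IDR list and 703 bp for the L paralogs, against 2166 bp for all genes. Among the mixed list of genes outside the symbol rule, 10 of 36 held the NRG element between 50 bases before and 250 after the TSS, and 18 of 36 up to 500 after it.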
